A study of Mus musculus with 18 samples.

Results

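The Notch receptors, their ligands and genes of the HES/HEY family were followed in hippocampal cultures grown on chondroitin sulphate proteoglycans (CSPGs). The gene symbols *Notch1*, *Notch2*, *Notch3*, *Dll1*, *Dll3*, *Jag1*, *Hes1*, *Hes5*, *Hes6* and *Hey1* were looked up in the deposited table, and 8 of these 10 genes had a row among its 12012 genes. *Hes1* and *Dll3* had no row and were not analysed here. The table holds no gene with a mean under 40.7 normalized counts over the libraries, which leaves weakly expressed genes out. Cells came from E18.5 hippocampus of mice bred on the C57BL/6J background, either WT or homozygous for the *Fibcd1* knockout allele tm1Lex (genotype fibcd1 -/- in the labels). FIBCD1 is a membrane receptor that binds glycosaminoglycans. Both groups were plated on a CSPG coating, which is a mixture of sulphated proteoglycans of the brain matrix, and RNA was taken on the third day in vitro (a legend of the study gives the second). The groups are called WT_CSPG and KO_CSPG, with 4 libraries each (replicates A to D). The cultures are labelled as neurons but hold glia as well, by the markers given below. The comparison asks how the Notch genes differ between genotypes on CSPGs. The labels list 5 WT_CSPG libraries, of which the fifth, and all uncoated cultures, were not analysed here.

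Notch signalling passes between cells that touch. A ligand of the Delta-like or Jagged kind on a cell binds a Notch receptor on its neighbour, the receptor is cut by ADAM proteases and then by gamma-secretase, and its freed intracellular part joins the DNA-binding protein RBPJ and Mastermind co-activators in the nucleus. The HES and HEY proteins that are made in response repress proneural genes such as *Neurog2*, and cells with little HES activity go on to become neurons. In the developing brain the pathway is known for holding radial glia in the progenitor state and for favouring glial over neuronal fates, and *Notch3* is also known from mural cells of blood vessels.

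RefSeq windows before the start site (GRCm38.p6) were matched for 8 of the 10 genes, and *Hes1* and *Hey1* were not matched. The 250 bases before the start were searched on both strands for the RBPJ core TGGGAA, for the class C site of HES proteins CACGCG, for the class B E-box CACGTG and for the N-box CACNAG, which HES proteins are also known to bind. The windows are shown for *Hes5*, a textbook target of RBPJ, and for *Notch2* and *Dll1*, which passed the test below. They lie at chr4:154960673-154960922 on the plus strand, chr3:98013288-98013537 on the plus strand and chr17:15376933-15377182 on the minus strand. Capitals mark the RBPJ core or the class C site in either orientation, and no match of any of these motifs overlapped another.
Hes5: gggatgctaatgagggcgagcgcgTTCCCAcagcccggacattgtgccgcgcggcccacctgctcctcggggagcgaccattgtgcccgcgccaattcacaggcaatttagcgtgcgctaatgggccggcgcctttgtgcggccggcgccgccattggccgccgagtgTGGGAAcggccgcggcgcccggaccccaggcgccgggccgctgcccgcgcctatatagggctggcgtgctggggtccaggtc
Notch2: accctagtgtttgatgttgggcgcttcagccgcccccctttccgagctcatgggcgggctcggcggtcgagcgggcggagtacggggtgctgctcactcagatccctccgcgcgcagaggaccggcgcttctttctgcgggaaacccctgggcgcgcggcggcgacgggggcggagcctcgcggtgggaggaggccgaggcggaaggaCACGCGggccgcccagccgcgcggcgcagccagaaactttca
Dll1: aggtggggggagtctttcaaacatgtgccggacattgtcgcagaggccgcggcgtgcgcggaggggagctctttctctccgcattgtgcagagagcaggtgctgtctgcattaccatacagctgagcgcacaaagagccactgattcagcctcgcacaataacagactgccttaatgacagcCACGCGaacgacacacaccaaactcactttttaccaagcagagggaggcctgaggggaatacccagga

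The *Hes5* window held the RBPJ core at 2 places, which begin 226 and 82 bases before the start. No other of the 8 windows held it. Of the 32851 windows of this length in the RefSeq table, 21.6% held the core and 2.77% held it more than once. The class C site was in 3 of the 8 windows, at 42 bases before the start in *Notch2*, at 68 in *Dll1* and at 249 and 171 in *Jag1*, and in 7.62% of all windows. The class B E-box was in 0 of the 8 windows (6.02% of all windows), and the N-box was in 3, those of *Notch1*, *Notch2* and *Notch3* (36.7% of all windows). These matches describe letters and not bound sites. The *Notch1* window lies before the RefSeq start at 26503822 but inside the deposited gene, which reaches 26516663 on the minus strand.

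The reads over the genes of the table ranged from 10099564 to 11174615 in the WT_CSPG libraries and from 10541445 to 11647202 in the KO_CSPG libraries. *Fibcd1* itself had 52 to 179 reads in the WT_CSPG libraries and 1 to 7 in the KO_CSPG libraries. The WT_CSPG replicate D stood apart in *Fibcd1* (179 reads against 52 to 65) and in *Ttr*, a choroid plexus gene (3529 normalized counts against 11.6 to 953 in the other WT_CSPG libraries). The summed level of 4 Y-linked genes was 1557 to 1935 normalized counts in WT_CSPG and 878 to 1092 in KO_CSPG. Genotype explained 89.8% of the variance of the sum of log2(normalized count + 1) over these 4 genes. Y-linked RNA and genotype therefore cannot be told apart. The study describes each replicate as a preparation of cells, but the labels do not tie libraries to animals or litters, and p-values measure the spread between these libraries.

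All 8 genes were read in every library, with between 86 *Jag1* reads and 837 *Notch2* reads per gene and library. Per kilobase of the deposited gene length, *Hes6* had the highest level, 335 ± 19.0 normalized counts (SD over the 8 libraries of both groups), above 85.6% of the genes of the table. *Hes6* is known to work against HES1 and to be used by cells on the way to becoming neurons. *Hes5* followed with 116 ± 21.1, *Dll1* with 90.2 ± 11.01 and *Hey1* with 85.9 ± 4.27 normalized counts per kilobase. The receptors came next, *Notch2* with 67.9 ± 7.07, *Notch1* with 41.3 ± 2.90 and *Notch3* with 17.9 ± 2.42 normalized counts per kilobase. *Jag1* was last with 16.9 ± 1.75 normalized counts per kilobase, above 7.88% of the genes of the table. Over the 8 libraries of both groups, neighbours in this order overlapped for *Hes5* and *Dll1*, for *Dll1* and *Hey1* and for *Notch3* and *Jag1*. This pooled spread includes the difference of *Dll1* between genotypes given below, and the order within each genotype was not compared. The other neighbours did not overlap.

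**Figure D1:**
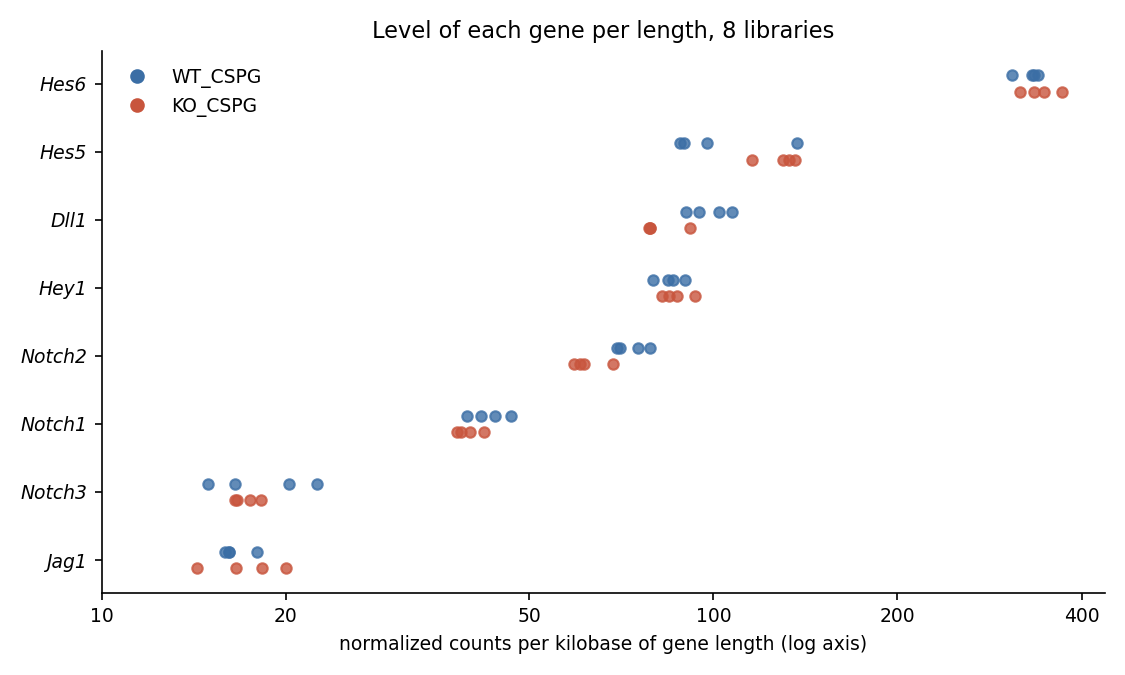
Normalized counts per kilobase of gene length (log axis) for the 8 genes, with a point for each WT_CSPG and KO_CSPG library. *Hes6* lies above all the other genes, between 308 and 371, and *Notch3* and *Jag1* lie lowest, between 14.3 and 22.5.

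Between genotypes, *Notch2* and *Dll1* were lower in KO_CSPG by 15.0% and 16.9% of the WT_CSPG mean, while the other receptors, *Jag1* and the HES/HEY genes did not pass the test. Thus 2 of the 8 genes were called, both lower, against 2.83% of 11553 genes called in either direction (1.06% higher and 1.77% lower). In numbers these were 122 genes higher and 205 lower, and upper-quartile scaling gave 171 higher and 169 lower. At an unadjusted p under 0.05 the counts were 3 of the 8 genes and 16.2% of all genes, and the groups did not overlap for 1 of the 8 and for 9.24% of all genes. Fold changes come from limma on log2(normalized count + 1). The median log2 fold change of KO_CSPG over WT_CSPG was -0.028 over the 8 genes and -0.00023 over all genes counted, and 4 of the 8 had a positive and 4 a negative value. Neither call held without the trend of the prior variance, with the same fold changes and adjusted p of 0.147 for *Notch2* and 0.156 for *Dll1* from limma. With the Y-linked sum as a covariate, which shares most of its variance with genotype, the log2 fold changes were further from 0 (-0.61 for *Notch2* and -0.39 for *Dll1*), the standard errors were wider (0.144 and 0.209) and the adjusted p from limma were 0.139 and 0.726.

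**Figure D2:**
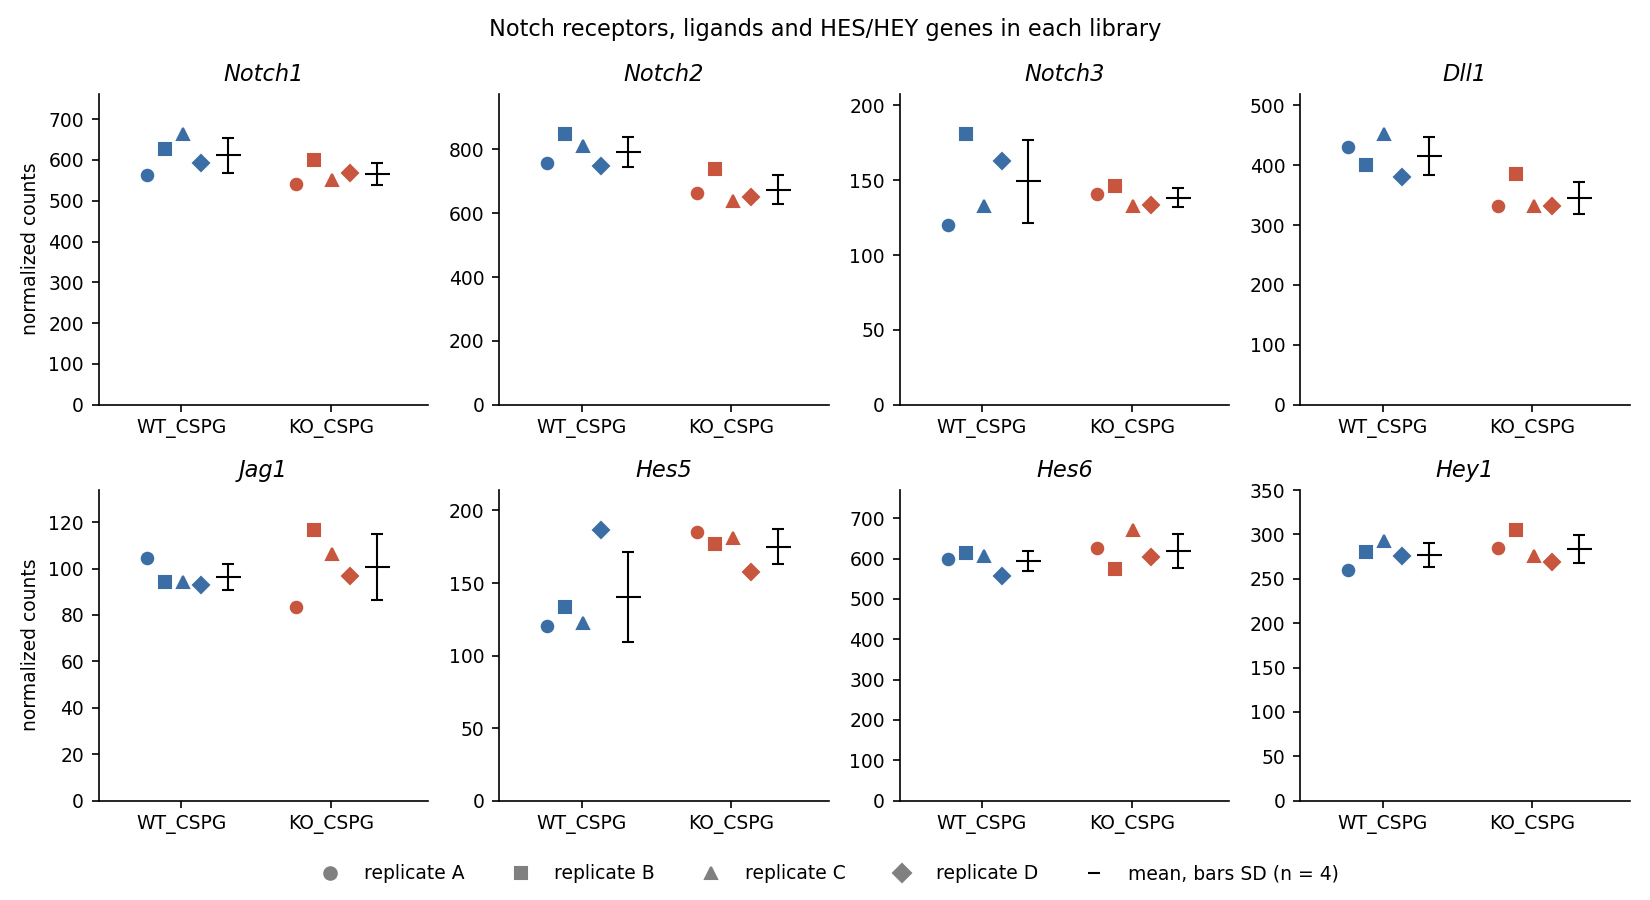
Normalized counts of the 8 genes in each library, with replicates A to D as symbols and the mean with SD (n = 4) beside each group. *Notch2* lies lower in all KO_CSPG libraries than in any WT_CSPG library, and the *Hes5* value of the WT_CSPG replicate D (186) lies with the KO_CSPG libraries.

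Among the receptors, *Notch2* (ENSMUSG00000027878, GRCm38 chromosome 3, 98013527 to 98150361, plus strand) had 758, 848, 812 and 749 normalized counts in the WT_CSPG replicates A to D and 662, 739, 639 and 652 in the KO_CSPG replicates A to D. All KO_CSPG libraries were below all WT_CSPG libraries, a lack of overlap found in this direction for 5.2% of all genes counted. The means were 792 ± 46.7 (SD, n = 4) in WT_CSPG and 673 ± 45.2 (SD, n = 4) in KO_CSPG. This is a log2 fold change of -0.23 (standard error 0.05, 95% interval -0.34 to -0.13), with an adjusted p of 0.0113 from limma. Without the KO_CSPG replicate C it was -0.21 with an adjusted p of 0.0558 from limma. The 7 other fits that left out a library kept the call. Those without the KO_CSPG replicate A or D or the WT_CSPG replicate B or C did so narrowly, with adjusted p between 0.0422 and 0.0488 from limma.

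*Notch1*, the receptor best known for keeping radial glia as progenitors, had 562, 626, 663 and 593 normalized counts in the WT_CSPG replicates and 542, 600.5, 550.0 and 569 in the KO_CSPG replicates. The groups overlapped, with a log2 fold change of -0.11 (95% interval -0.22 to 0.0011, adjusted p = 0.318 from limma). *Notch1* ends 5296627 bases from *Fibcd1* on chromosome 2, and the part of this linkage in its value was not tested. *Notch3* had 120.2, 181, 133 and 163 normalized counts in the WT_CSPG replicates and 141, 146, 133 and 134 in the KO_CSPG replicates. The WT_CSPG libraries reached both below and above all KO_CSPG libraries. The log2 fold change of *Notch3* was -0.09 (95% interval -0.31 to 0.13, adjusted p = 0.758 from limma), and it was 0.0074 without the WT_CSPG replicate B.

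Among the ligands, *Dll1* (ENSMUSG00000014773, chromosome 17, 15367354 to 15376872, minus strand), the Delta-like ligand of newborn neurons and intermediate progenitors, had 430.5, 399.6, 452 and 380.1 normalized counts in the WT_CSPG replicates and 333, 386, 331 and 332 in the KO_CSPG replicates. The KO_CSPG replicate B lay just above the lowest WT_CSPG library, and the other KO_CSPG libraries lay below all of them. The means were 416 ± 31.9 (SD, n = 4) in WT_CSPG and 345 ± 27.1 (SD, n = 4) in KO_CSPG, and the log2 fold change was -0.27 (standard error 0.07, 95% interval -0.40 to -0.13, adjusted p = 0.0259 from limma). Leaving out the KO_CSPG replicate A, C or D or the WT_CSPG replicate A or C moved the adjusted p from limma to between 0.0744 and 0.114, with log2 fold changes between -0.25 and -0.22. Without the KO_CSPG replicate B the adjusted p was 0.00866 from limma.

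*Jag1*, the Jagged ligand, had 104, 94.2, 94.1 and 92.7 normalized counts in the WT_CSPG replicates and 83.4, 117, 106 and 96.7 in the KO_CSPG replicates. The KO_CSPG libraries lay on both sides of the WT_CSPG libraries. Its log2 fold change was 0.05 (95% interval -0.18 to 0.29, adjusted p = 0.873 from limma), which is not detectable at this depth and spread. Without the KO_CSPG replicate B it was -0.019.

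Among the HES/HEY genes, *Hes5* (ENSMUSG00000048001, chromosome 4, 154960923 to 154962371, plus strand), which carries the RBPJ cores shown above, had 120.2, 133, 122 and 186 normalized counts in the WT_CSPG replicates and 185, 177, 181 and 157 in the KO_CSPG replicates. The WT_CSPG replicates A to C were below all KO_CSPG libraries, and the WT_CSPG replicate D was above all of them. The means were 141 ± 31.2 (SD, n = 4) in WT_CSPG and 175 ± 12.3 (SD, n = 4) in KO_CSPG. The log2 fold change of 0.34 (standard error 0.12, 95% interval 0.10 to 0.58) did not pass the test, with an adjusted p of 0.129 from limma. Without the WT_CSPG replicate D it was 0.48, with an adjusted p of 0.00272 from limma, and without any other library the adjusted p was between 0.1204 and 0.308. This library is the one with the most *Ttr* and *Fibcd1*, and its part in the result for *Hes5* beyond these values was not tested.

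*Hes6* had 599.8, 613, 605 and 556 normalized counts in the WT_CSPG replicates and 627, 573, 671 and 604 in the KO_CSPG replicates, and the groups overlapped. *Hey1*, a target in progenitors and in vessels, had 260.2, 280.5, 293 and 275 normalized counts in the WT_CSPG replicates and 285, 305, 276 and 269 in the KO_CSPG replicates, again with overlap. For *Hes6* the log2 fold change was 0.06 (95% interval -0.05 to 0.17, adjusted p = 0.647 from limma). For *Hey1* it was 0.03 (95% interval -0.10 to 0.17, adjusted p = 0.864 from limma), and -0.0012 without the KO_CSPG replicate B.

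**Figure D3:**
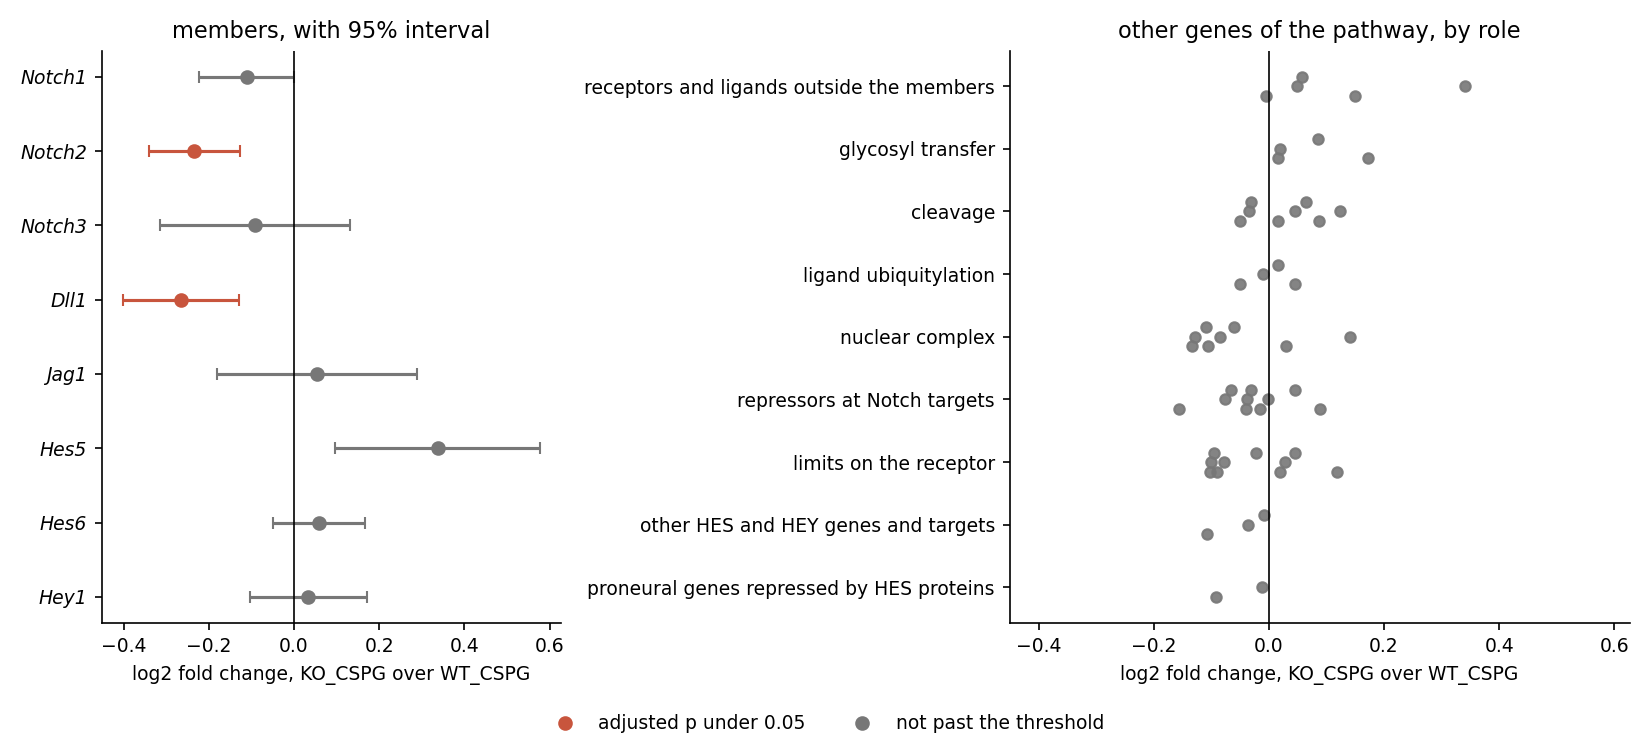
Log2 fold change of KO_CSPG over WT_CSPG, for the 8 genes with the 95% interval (left) and for 54 other genes of the pathway grouped by role, without intervals (right). Red points have an adjusted p under 0.05 from limma, which are *Notch2* and *Dll1* on the left and no gene on the right.

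The rest of the pathway was followed in 66 further genes, of which 54 had a row. None of these 54 was called with limma, against 2.83% of all genes called. An unadjusted p under 0.05 was found for 8 of the 54, against 16.2% of all genes. Their median log2 fold change was -0.011, with 23 positive and 31 negative values. The groups did not overlap for 4 of the 54, against 9.24% of all genes (4.04% higher and 5.2% lower in KO_CSPG). *Dtx4* and *Tle1* were above in KO_CSPG, and *Snw1* and *Numbl*, the last of which was picked after its values were seen, were below. Upper-quartile scaling called *Dtx4*, and the replicate block called *Cntn1*. These genes are a part of the pathway list, and their count does not stand for the pathway as a whole.

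Of the enzymes that cut the receptor, 8 had a row, and the smallest p values were those of *Aph1b*, a subunit of gamma-secretase (log2 fold change 0.04, adjusted p = 0.722 from limma), and of the protease *Adam17* (-0.05, adjusted p = 0.732). Of the repressors that sit at Notch targets, 10 had a row, 8 with a negative value, and the smallest p values were those of *Tle1*, a Groucho co-repressor (0.09, adjusted p = 0.304), and of the deacetylase *Hdac1* (-0.16, adjusted p = 0.472). The proneural genes *Neurog2* (-0.09, adjusted p = 0.703) and *Neurod1* (-0.01, adjusted p = 0.955), which HES proteins repress, were not called. All 8 genes of the nuclear complex had a row, 6 with a negative value, led by *Ep300*, an acetyltransferase (-0.11, adjusted p = 0.179), and *Snw1* (-0.11, adjusted p = 0.266). *Rbpj*, chosen here after its values were seen because the complex is built on it, had 299.6 to 352 normalized counts in KO_CSPG and 327 to 354 in WT_CSPG, with a log2 fold change of -0.13 (adjusted p = 0.309). Among the genes that limit the receptor, *Dtx4* (0.12, adjusted p = 0.0678, and called with upper-quartile scaling and without the WT_CSPG replicate D) and *Fbxw7*, which marks the intracellular part of Notch for breakdown (-0.10, adjusted p = 0.233), had the smallest p. Among the other receptors and ligands these were the non-canonical ligand *Cntn1* (0.15, adjusted p = 0.169, and called with the replicate block) and *Dll4* (0.34, adjusted p = 0.324, with 34 to 72 reads per library). The glycosyl transferases *Lfng* (0.17, adjusted p = 0.324) and *Poglut1* (0.09, adjusted p = 0.45), the ubiquitin ligases *Mib1* (-0.05, adjusted p = 0.543) and *Neurl1b* (0.04, adjusted p = 0.785), and the targets *Myc* (-0.11, adjusted p = 0.35) and *Sox9* (-0.04, adjusted p = 0.782) led their roles. All these values are log2 fold changes with adjusted p from limma. The genes looked up without a row were *Notch4*, *Dlk1*, *Mfng*, *Psenen*, *Hes2*, *Hes3*, *Hes7*, *Hey2*, *Heyl*, *Neurog1*, *Neurod4* and *Atoh1*.

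**Figure D4:**
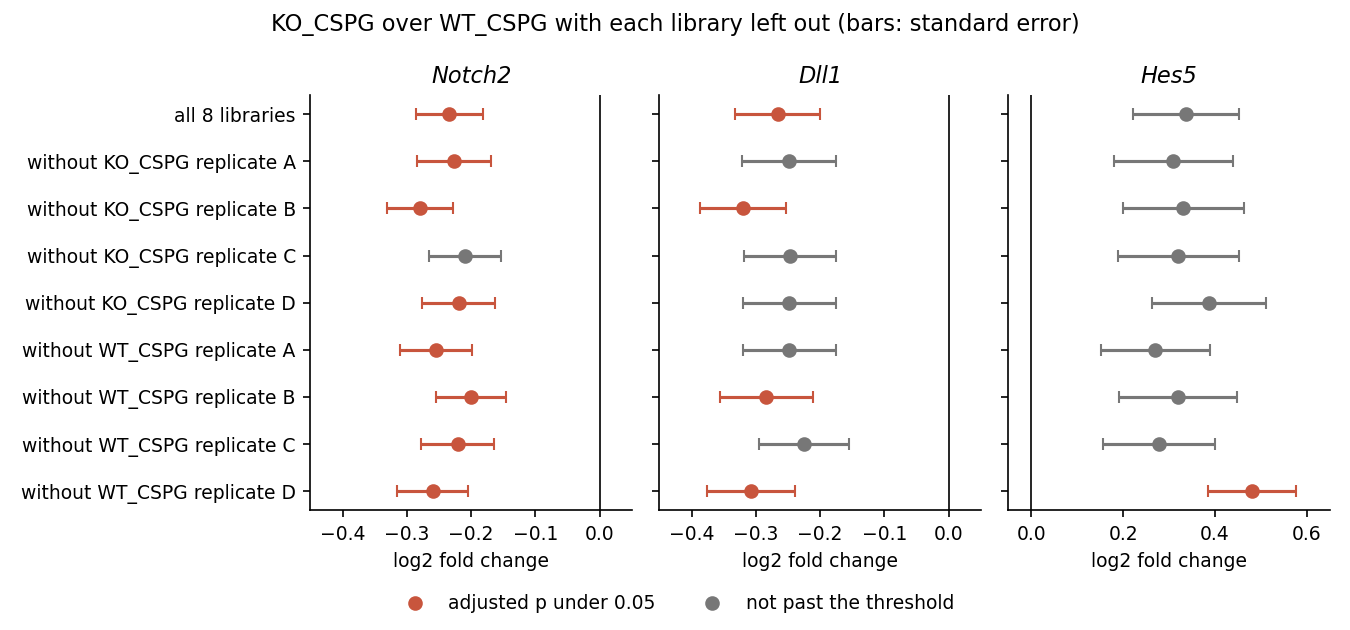
Log2 fold change of KO_CSPG over WT_CSPG with its standard error for *Notch2*, *Dll1* and *Hes5*, with all 8 libraries and with each library left out. *Notch2* (-0.28 to -0.20) falls short of the threshold only without the KO_CSPG replicate C. *Dll1* (-0.32 to -0.22) falls short without the KO_CSPG replicate A, C or D or the WT_CSPG replicate A or C. *Hes5* passes the threshold only without the WT_CSPG replicate D (0.48).

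Notch genes are used at different levels by progenitors, glia, neurons and vessel cells, and in these bulk libraries fewer cells of a type and less RNA per cell cannot be told apart. Of the 10 radial glia and progenitor markers, all in the table, *Nes* (nestin) was lower in KO_CSPG (log2 fold change -0.22, adjusted p = 0.00192 from limma) and the other 9 were not called. Their summed level was 31217 to 35772 normalized counts in WT_CSPG and 33288 to 34250.5 in KO_CSPG. Of 8 oligodendrocyte lineage markers, *Olig1* (0.59, adjusted p = 2.33e-07) and *Olig2* (0.79, adjusted p = 1.2e-06) were higher, and the summed levels did not overlap (1098 to 1461 in WT_CSPG and 1708 to 1913 in KO_CSPG). Of 6 genes of intermediate progenitors and immature neurons, *Prox1* was higher (0.29, adjusted p = 0.00918) and *Neurod2* lower (-0.21, adjusted p = 0.000799). None was called with limma among 9 astrocyte markers (summed level 40431 to 48858 in WT_CSPG and 47188 to 53152 in KO_CSPG), 8 neuron markers (76518 to 81695 and 76610.1 to 79182), 6 proliferation markers (2486 to 2650 and 2458 to 2650), 4 microglia markers measured of 7 (1094.5 to 1229 and 1138 to 1353), 4 mural cell markers measured of 9 (398 to 515 and 516 to 644, without overlap), 4 measured of 7 fibroblast and meningeal markers (177 to 727 and 415 to 1214) or 2 measured of 6 ependymal and choroid plexus markers (472 to 3878 and 398 to 602). Of 8 endothelial markers only *Kdr* had a row (47.5 to 82.5 and 36.8 to 54.1), and the mural markers *Kcnj8*, *Abcc9*, *Tagln*, *Myh11* and *Des* had none. Of the 9 astrocyte markers, 8 had a positive log2 fold change (median 0.16). *Aqp4* (0.32, adjusted p = 0.216 from limma) and *Sparcl1* (0.25, adjusted p = 0.188 from limma), picked after their values were seen, were above in all KO_CSPG libraries, as were 4.04% of all genes counted. The measured mural, fibroblast and microglia markers, 4 of each, were all positive as well. The mural and the fibroblast lists each share a measured gene with the oligodendrocyte lineage list, so these lists are not independent of it. Over all 60 markers with a row, 5 were called with limma (3 higher and 2 lower), against 2.83% of all genes. The groups did not overlap for 7 markers higher and 2 lower in KO_CSPG, against 4.04% and 5.2% of all genes. The labelled cell type was met by the neuron genes *Tubb3* (mean of 15668 normalized counts in WT_CSPG) and *Dcx* (21261), and the astrocyte gene *Gfap* was at 19961. Without the trend of the prior variance, *Olig1* and *Olig2* were the only markers called, and with the Y-linked covariate none was. The part of these cell types in the results for *Notch2* and *Dll1* was not tested.

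Exons of other annotated genes overlap those of *Notch1*, *Notch2*, *Notch3*, *Dll1* and *Hes5* in GENCODE M21, on the opposite strand except at *Notch2*, and none of these genes had a row. How reads over such overlaps were counted is not given in the sources used here.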

How the data were processed

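RNA-seq of poly-A RNA (50-base single reads) was made by the authors, whose processing notes name DESeq2 (used by the authors) and build mm10. The aligner and counter are not given in the sources used here. The deposited values are a signal, the authors' reads per gene scaled by 1 size factor for each library, beside another column with the gene length. Scaled reads came back as whole numbers (largest deviation 5.82e-11 of a read). Columns of the authors' comparison (fold changes, errors, Wald scores, p-values, a DEG flag) were not used. Of 18 labelled libraries, 8 had columns, and 10 were not analysed here.

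limma 3.58.1 (R 4.3.3) was run on log2(value + 1), which shrinks folds of low genes, with trend and robust priors, two-sided tests and Benjamini-Hochberg adjustment over 12012 genes at 0.05. Counts over all genes leave out 459 sex-chromosomal genes and pseudogenes. The fit was tested on simulated data. Count models, planned in case of raw counts, were not run.

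Named genes are the members, *Fibcd1*, called pathway genes, otherwise the 2 per role with the smallest p, and called markers. *Ttr*, *Rbpj*, *Numbl*, *Aqp4*, *Sparcl1*, *Kdr*, *Tubb3*, *Dcx* and *Gfap* were added after their values were seen. Of the pathway list, 3 genes are not reported here, and its counts cover the others and say nothing of these 3. Members and lists were chosen with earlier results of these data known. Positions count from 1 in GRCm38, and all members except *Notch3* have the same ends in GENCODE M21. Alternatives were pseudocounts, a mean filter, upper-quartile scaling, no trend, a replicate block, a Y-linked covariate and each library left out.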

Additional observations from a re-analysis of the deposited data

Results flagged for a closer look

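Of 18 groups of 4 libraries examined (the 8 genes and *Fibcd1* in each genotype), 3 held a value whose gap to the nearest other library was a larger share of the group's range than Dixon's 95% critical value for groups of this size. Chance flags about 1 group in 20. *Dll1* in the KO_CSPG replicate B was 386 normalized counts, against 331 to 333 in the other KO_CSPG libraries. *Jag1* in the WT_CSPG replicate A was 104 normalized counts, against 92.7 to 94.2. *Fibcd1* in the WT_CSPG replicate D was 182 normalized counts, against 54.3 to 70.4. *Hes5* in the WT_CSPG replicate D did not reach the critical value.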

How the results depend on the processing

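With the Y-linked covariate, 0 of the 8 Notch genes, 0 of the 54 pathway genes and 0 of the markers were called with limma (3, 7 and 10 at an unadjusted p under 0.05), and 2 genes of all (836 at an unadjusted p under 0.05). Genotype explains 89.8% of the variance of this covariate, so the fit separates them poorly. The log2 fold change was then -0.61 for *Notch2*, -0.39 for *Dll1*, -0.84 for *Notch3* and -0.37 for *Notch1* (adjusted p of 0.139, 0.726, 0.481 and 0.654 from limma), 0.13 for *Hes5* and 0.19 for *Hes6*, and *Jag1* and *Hey1* reversed to -0.28 and -0.20. Without the trend of the prior variance, 0 Notch genes, 0 pathway genes, 2 markers (*Olig1* and *Olig2*) and 73 of all genes were called, and the cause was not tested. At an unadjusted p under 0.05 this setting gave 3 Notch genes, 8 pathway genes and 1679 of all genes. Without 1 library the calls ranged from 0 (without the KO_CSPG replicate C) to 3 (without the WT_CSPG replicate D) for the Notch genes, from 0 to 1 for the pathway genes (*Dtx4* without the WT_CSPG replicate D), from 5 to 9 for the markers and from 177 to 550 for all genes (327 with all libraries, 177 without the KO_CSPG replicate A and 550 without the WT_CSPG replicate D). The log2 fold change of *Notch3* then ranged from -0.19 to 0.0074 (reversed without the WT_CSPG replicate B), that of *Jag1* from -0.019 to 0.14 and that of *Hey1* from -0.0012 to 0.061 (both reversed without the KO_CSPG replicate B). Upper-quartile scaling gave 171 higher and 169 lower genes in place of 122 and 205, with 2 Notch genes and 1 pathway gene called. Pseudocounts of 0.1 and 10 and a mean of at least 100 kept *Notch2* and *Dll1* as the called Notch genes. The mean filter leaves out *Jag1*. Whether the replicate letters pair the libraries was not settled, and the main fit did not use them. Across genes, the deviations of same-lettered libraries had correlations of -0.07, 0.10, 0.27 and -0.0051 for A to D. The WT_CSPG replicates B and C matched best with the KO_CSPG library of their own letter, while A matched best with C and D with A. With the replicate block, 2 Notch genes, 1 pathway gene (*Cntn1*), 9 markers and 404 of all genes were called. The alternatives with edgeR and DESeq2 were not run. Counting all genes of the table gave 346. Genes with about 100 reads per library, such as *Jag1*, limit what can be detected.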
